A study of Homo sapiens with 8 samples.

Results

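DU145 was compared with RWPE-1 for DNA methylation and for gene expression, on 4 of the 8 samples of the series. The pair was picked by cell line name, and every CpG site and every probe measured in both lines was used. DU145 is an established human prostate cancer line, derived from a brain metastasis and able to grow without androgen. RWPE-1 is an established line of non-cancerous prostate epithelium that was immortalized with a papillomavirus, and the labels name it as the normal control. The labels give no treatment, passage or growth condition for either line. Each line had 1 genomic DNA sample on a methylation beadchip and 1 total RNA sample on an expression beadchip. LNCaP-FGC and PC3, the remaining cancer lines, are used below only to give the level of the same sites and probes in other prostate cells. With 1 array per line and assay there was no replicate error and no test. All differences are therefore described by size, and they compare these arrays rather than the lines in general.

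DNA methylation is the addition of a methyl group to cytosine, in mammals mostly where a guanine follows (a CpG site). Promoters rich in CpG are usually kept unmethylated in normal cells, whereas CpG sites elsewhere are mostly methylated. In prostate cancer, methylation is known to appear at many CpG-rich promoters, and dense methylation there goes with a silent gene. The methylation level was given as a beta value, which runs from 0 (no methylated copy) to 1 (every copy methylated). A change between the ends of that scale is a switch in the state of most DNA copies, and a shorter move along it means that the share of methylated copies differed. In expression, a probe at the background of the array has no measured level, so a difference against it is only a lower bound. Switches and graded differences were for these reasons kept apart in both assays.

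The array pairs were as follows. A beta value was present in both lines at 27551 of 27578 sites, with 19 sites blank in DU145 and 8 in RWPE-1. The expression arrays held 48803 probes, with a median raw intensity of 178 in DU145 and 151 in RWPE-1, and a highest of 68654 and 66931. The tables used here pair neither CpG sites nor probes with genes. The results are therefore given by class and by level, with 2 identifiers in each direction per assay, and the prostate, basal and epithelial marker genes by which the label of each line could be checked were not analysed here.

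At most sites DU145 and RWPE-1 had the same methylation state. Sites were called unmethylated below a beta of 0.2 and methylated above 0.8, and 21021 sites (76.3%) fell in the same class in both lines. Of the 17988 sites that were unmethylated in RWPE-1, 14960 (83.2%) were unmethylated in DU145, 2268 (12.6%) were intermediate and 760 (4.23%) were methylated. Of the 3647 sites methylated in RWPE-1, 3300 (90.5%) were methylated in DU145, 305 (8.36%) were intermediate and 42 (1.15%) were unmethylated. Both ends of the scale were thus largely kept in DU145.

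The intermediate class was the least stable. Of the 5916 sites that were intermediate in RWPE-1, 2595 (43.9%) were methylated in DU145, 560 (9.47%) were unmethylated and 2761 (46.7%) were still intermediate. The sites that went from intermediate to methylated had a median of 0.612 on the RWPE-1 array against 0.880 in DU145, so part of them crossed the limit from nearby. Those that went from intermediate to unmethylated had a median of 0.376 in RWPE-1 and 0.0891 in DU145. Sites that stayed intermediate had a median of 0.480 and 0.630.

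**Figure D1:**
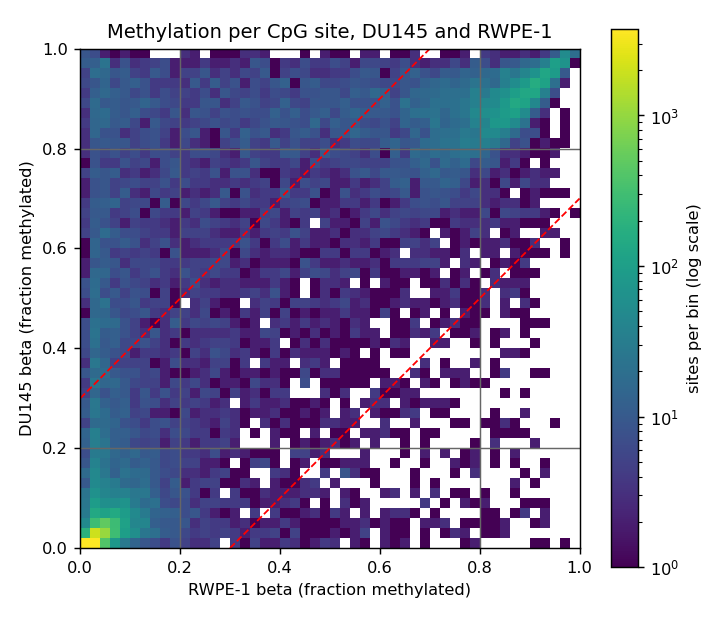
Beta values of 27551 CpG sites in RWPE-1 (horizontal axis) and DU145 (vertical axis), with the number of sites per bin in colour on a log scale. Grey lines mark the class limits of 0.2 and 0.8 and red dashed lines a difference of 0.3; sites fill the upper left triangle densely (3874 beyond the line) and the lower right thinly (503 beyond it).

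By size, 3874 sites (14.1% of all) were higher in DU145 by at least 0.3 in beta and are called gains. Lower by at least 0.3, and called losses, were 503 sites (1.83%). Gains made up 88.5% of the 4377 sites past the size limit. The directions did not have equal numbers of sites to draw on. A site below 0.3 in RWPE-1 cannot be a loss and a site above 0.7 cannot be a gain. In RWPE-1, 17988 sites were below 0.2 and 3647 above 0.8, so the share of gains depends in part on these starting levels. The median gain was 0.504, with betas of 0.156 in RWPE-1 and 0.803 in DU145 at the median. The median loss was -0.416, from 0.662 in RWPE-1 to 0.144 in DU145. Losses were shorter steps: 34.0% of them reached 0.5 and 9.94% reached 0.7, whereas 50.9% of the gains reached 0.5 and 20.5% reached 0.7. The limit of 0.3 cut through a continuous spread, with 531 sites between 0.30 and 0.35 and 578 between 0.25 and 0.30 on the gain side, and 130 and 129 on the loss side.

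Switches from unmethylated to methylated were found at 760 sites (2.76% of all) and the reverse at 42 (0.152%). The 760 sites that switched up made up 19.6% of the gains. At the median they went from a beta of 0.0757 in RWPE-1 to 0.895 in DU145, and the middle 50% of their differences lay between 0.757 and 0.867. The 42 sites that switched down made up 8.35% of the losses. These went from 0.874 to 0.0743 at the median. In both directions about 90% of switched sites differed by at least 0.7 (90.3% of those up, 90.5% of those down).

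The largest switch up was at cg26521404. Its beta was 0.993 in DU145 against 0.0112 in RWPE-1, and it was 0.985 in LNCaP-FGC but 0.0283 in PC3. The site was thus almost fully methylated in DU145 and LNCaP-FGC and almost free of methylation in RWPE-1 and PC3. The largest switch down was at cg02433671, with a beta of 0.0142 in DU145 against 0.968 in RWPE-1. It was 0.960 in LNCaP-FGC and 0.632 in PC3. DU145 was the single low line at this site, and PC3 lay between. Both sites were chosen for the size of their difference.

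Graded differences were the larger part of both gains and losses. There were 3114 graded gains (11.3% of all sites) and 461 graded losses (1.67%). At the median, graded gains went from 0.224 in RWPE-1 to 0.743 in DU145. Of these, 1436 (46.1%) began unmethylated in RWPE-1 and 1678 (53.9%) began intermediate. In DU145, 1197 (38.4%) were methylated and 1917 (61.6%) were intermediate. Graded losses had a median of 0.640 in RWPE-1 and 0.156 in DU145, and 368 of the 461 (79.8%) began at an intermediate level. Of these graded losses, 264 (57.3%) ended unmethylated. Over all 503 losses, switches included, 73.2% began at an intermediate level. In RWPE-1 there were also more intermediate sites (5916) than methylated ones (3647) to start from.

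The largest graded differences sat at the edge of the switch class. At cg00949442 the beta was 0.983 in DU145 against 0.2 in RWPE-1, on the limit itself. It was 0.966 in LNCaP-FGC and 0.970 in PC3. RWPE-1 was the single low line there. At cg24010336 it was 0.788 in RWPE-1, just under the limit of 0.8, and 0.0129 in DU145, with 0.779 in LNCaP-FGC and 0.452 in PC3. DU145 was the lowest of the 4 lines at this site.

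The share of sites that differed in DU145 varied with their level in RWPE-1. Among 16206 sites with a beta under 0.1 in RWPE-1, 9.20% were gains, and the median beta was 0.0289 in RWPE-1 and 0.0207 in DU145. Among 1782 sites from 0.1 to 0.2 the share of gains was 39.6%, and the median in DU145 was 0.286 against 0.138 in RWPE-1. Sites with a trace of methylation in RWPE-1 were therefore gains more often than sites with almost none. The share was 49.3% from 0.2 to 0.3, 52.2% from 0.3 to 0.4, 46.3% from 0.4 to 0.5 and 34.1% from 0.5 to 0.6. Above 0.7 no gain of 0.3 is possible.

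Below 0.3 no loss of 0.3 is possible, and losses were uncommon at every starting level above it. They ran from 4.19% of the 859 sites between 0.3 and 0.4 to 10.3% of the 813 sites between 0.5 and 0.6. From there the share was 9.46% between 0.6 and 0.7, 5.87% between 0.7 and 0.8, 4.24% between 0.8 and 0.9, and 2.65% of the 1243 sites above 0.9. Between 0.3 and 0.6, where a site could move by 0.3 in either direction, gains outnumbered losses in each of the bins, at 448 against 36, 395 against 75 and 277 against 84. In these middle bins the median beta in DU145 was 0.680, 0.721 and 0.778, against 0.3504, 0.450 and 0.552 in RWPE-1.

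**Figure D2:**
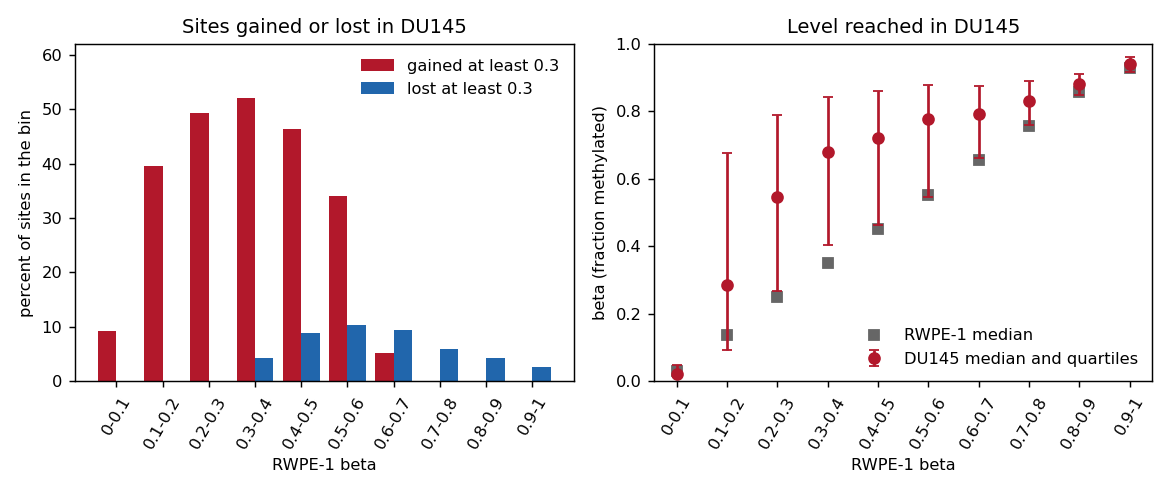
Left, the percentage of CpG sites gained (red) or lost (blue) by at least 0.3 in DU145, by the beta of the site in RWPE-1. Right, the median beta in RWPE-1 (squares) and in DU145 (circles, bars from the lower to the upper quartile over sites); the DU145 median lies above that of RWPE-1 in every bin except the lowest.

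The DU145 array had a wider scale than the RWPE-1 array, which bears on these counts. Over 10916 sites below 0.1 in all lines of the series the median beta was 0.0151 in DU145 and 0.0253 in RWPE-1. Over 1570 sites above 0.8 in all lines it was 0.925 and 0.8999. Bringing both ends of the DU145 scale linearly onto those of RWPE-1 left 3716 gains and 504 losses, and 692 sites that switched up and 41 that switched down. Forcing the arrays of the series to share 1 distribution of betas, which removes any net difference by construction, left 1757 gains, all of them among the 3874, and gave 1370 losses, among them all 503. Gains then made up 56.2% of the differences in place of 88.5%. The sites that switched up numbered 327 and those that switched down 92 under that scaling. The linear rescaling left the share of gains nearly as it was (88.1%). It was set by sites at the ends of the scale alone and moved betas little (slope 0.962, intercept 0.0108). It could therefore hardly change this share, and it does not address a difference between the arrays in the middle of the scale. A net gain of methylation in DU145 and another difference between the 2 arrays cannot be told apart without repeat arrays.

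The sites that switched in DU145 were then read in PC3 and LNCaP-FGC, whose arrays the choice of sites did not use. Of the 760 sites that switched up, 177 (23.3%) were methylated in PC3, 358 (47.1%) were intermediate and 225 (29.6%) were unmethylated. Among all sites unmethylated in RWPE-1, 2.96% were methylated in PC3. In LNCaP-FGC 218 of the 760 (28.7%) were methylated and 276 (36.3%) were unmethylated, against 4.84% methylated among all sites unmethylated in RWPE-1. The sites that switched up in DU145 were thus more often methylated in either other line than sites of the same RWPE-1 class. The gap was also present within narrower RWPE-1 levels. Below 0.1 in RWPE-1, 20.4% of the switched sites were methylated in PC3 against 2.30% of all sites, and 26.0% against 4.01% in LNCaP-FGC. From 0.1 to 0.2 the shares were 28.2% against 8.98% in PC3 and 33.2% against 12.3% in LNCaP-FGC.

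Of the 760, 120 (15.8%) were unmethylated in both PC3 and LNCaP-FGC, against 76.2% of all sites unmethylated in RWPE-1, and 93 (12.2%) were methylated in both, against 1.30%. Of the 42 sites that switched down, 10 were unmethylated in PC3 and 6 in LNCaP-FGC, and 18 (42.9%) and 20 (47.6%) were methylated. In both other lines, 13 of the 42 (31.0%) were methylated and 5 (11.9%) were unmethylated. Of all sites methylated in RWPE-1, 3.48% were unmethylated in PC3, and 7.51% were in LNCaP-FGC, while 66.4% and 53.7% were methylated there. In both other lines, 45.0% of that class were methylated and 1.40% were unmethylated. No test was made of these shares. The same RWPE-1 array chose the sites in each case, so a reading peculiar to that array would raise them in both lines.

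In expression, a probe was counted as at background when its raw intensity did not exceed the median of its array, since no detection p-values were used here. By this line 19746 probes (40.5%) were above background in both lines and 19747 (40.5%) in neither. The other 4655 probes above the line in DU145 and 4655 in RWPE-1 were above it in that line alone, and the equal numbers follow from the use of medians. Intensities were background-corrected and quantile normalized, and a probe counted as switched when it was at background in one line and at least 2-fold above the background line in the other. It counted as graded when it was above background in both and differed at least 2-fold.

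Graded differences outnumbered switches. There were 2722 probes graded higher in DU145 (5.58% of all probes) and 2615 graded lower (5.36%), together 27.0% of the probes above background in both lines. Switched on in DU145 were 411 probes (0.842%), and 454 (0.93%) were switched off. A further 4244 probes were above the background line in DU145 alone and 4201 in RWPE-1 alone by less than the size limit, and no fold is given for these. The nearly equal numbers in the 2 directions are in part built in by quantile normalization. With arrays scaled to a common median instead, 2978 probes were graded higher and 2514 lower, and 388 were switched on and 490 off.

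**Figure D3:**
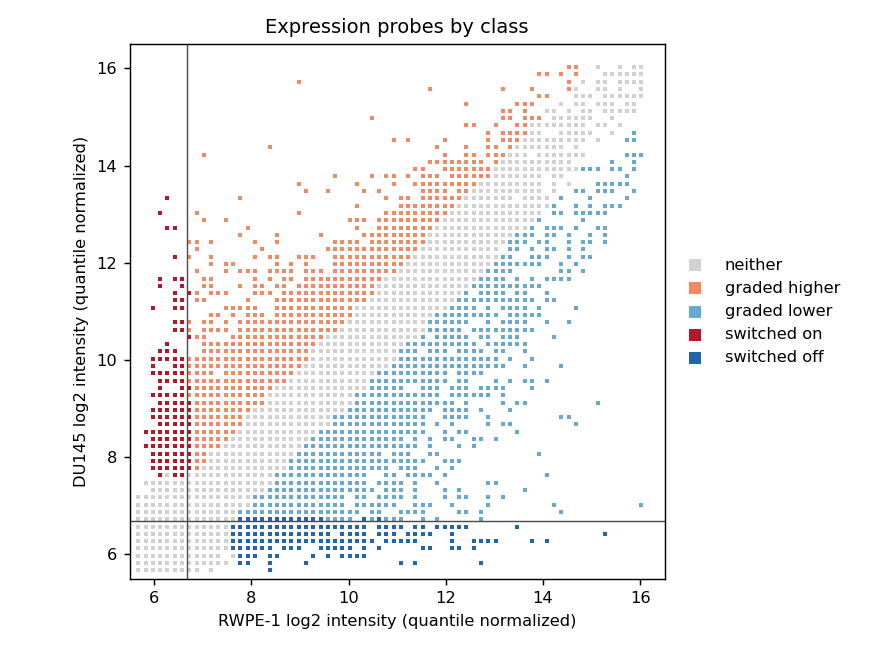
Quantile-normalized log2 intensity in RWPE-1 (horizontal) and DU145 (vertical), each mark a small bin that holds at least 1 probe of the class shown by its colour. Grey lines mark the median, used as background; the 411 probes switched on lie left of the vertical line, the 454 switched off lie below the horizontal line and reach further from it. Marks stand at bin centres, so those of a bin that a line crosses are drawn just past it.

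Graded differences towards lower expression in DU145 were larger at the median and at the upper end than those towards higher expression. The median fold was 2.78 among probes graded higher and 3.10 among those graded lower, and the upper quartile was 3.84 and 4.66. At least 4-fold differences made up 22.9% of the probes graded higher (622) and 33.5% of those graded lower (875). At least 16-fold were 41 and 76 probes. The same held for switches at their upper end. Probes switched on were at least 3.28-fold above the background line at the median and probes switched off at least 3.29-fold, but the bound at the 90th percentile was 9.23-fold for those switched on and 17.6-fold for those switched off. A bound of at least 16-fold was reached by 20 probes switched on (4.87%) and by 50 switched off. Without background correction, with median scaling, with quantile normalization over this pair alone and in the authors' deposited values, at least 4-fold differences were again more numerous towards lower expression, in graded probes and in switches. Among graded probes the closest counts were 697 higher against 742 lower, with median scaling, and among switches 148 on against 169 off, with quantile normalization over this pair alone.

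Most switches were of modest brightness. Probes switched on had a median raw intensity of 402 in DU145 and 138 in RWPE-1. Probes switched off had a median of 375 in RWPE-1 and 162 in DU145. The brightest reached 11720 among those switched on and 32185 among those switched off. The brightest signal that was at background in the other line was thus an RWPE-1 signal.

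The brightest switch on was at probe ILMN_1675797, with a raw intensity of 11720 in DU145 against 129 in RWPE-1. It was 2801 in PC3 and 651 in LNCaP-FGC. RWPE-1 was the only line at background, and DU145 was the brightest. Its normalized log2 intensity was 13.32 in DU145 and 6.28 in RWPE-1, which puts DU145 at least 99.8-fold above the background line. The brightest switch off was at ILMN_2219002, where the raw intensity was 32185 in RWPE-1 and 158 in DU145, and the bound was at least 397-fold. It was at background in LNCaP-FGC (162) as well, and at 267 in PC3 it lay above the line.

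The largest graded differences came close to being switches. At ILMN_1757387 the raw intensity was 186 in RWPE-1 and 21149 in DU145, with 235 in LNCaP-FGC and 141 in PC3, so DU145 was the single bright line. Its value in RWPE-1 was above that of 67.5% of the probes on the array, just over the background line, and the normalized difference of 7.08 on the log2 scale (135-fold) depends on how background is treated. It was 6.49 in the authors' log2 values, computed here from their deposited table. At ILMN_1666845 the raw intensity was 62267 in RWPE-1 and 209 in DU145, with 167 in LNCaP-FGC and 1184 in PC3. DU145 lay above 66.5% of probes there, and the difference was -8.92 on the log2 scale, or -8.34 in the authors' values. These probes too were picked for their size.

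The place of the background line changed how many differences counted as switches. Of the probes graded higher, 839 (30.8%) had an RWPE-1 intensity in the lower 75% of that array, and 916 of those graded lower had such an intensity in DU145. With the line at the 75th percentile, 643 probes were switched on and 727 off, and switches were 27.7% of all differing probes in place of 13.9%. Probes graded at that line numbered 1883 higher and 1699 lower. Raising it to the 90th percentile, a setting added after seeing the data, left 588 probes graded higher and 485 lower, all with substantial signal in both lines, and 348 switched on and 432 off. Switches off outnumbered switches on at each of these lines.

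Among probes above background in both lines, the brighter ones were also read by level, in 5 equal bins of mean log2 intensity. Of 3950 probes in the brightest bin, 20.1% were graded higher in DU145 and 18.1% lower, with a median difference of 0.11 on the log2 scale. In the bin under it the shares were 22.6% and 21.3%. In the middle bin they were 20.4% and 20.5%. The next bin had 5.90% and 6.25%, and the dimmest had none. These last bins are not compared with the brighter ones. A probe that must exceed the background line in both lines cannot, or can hardly, differ 2-fold at such a mean. A probe at background on one array counts as a switch only if it is at least 2-fold above the background line on the other. Otherwise it is in neither class.

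The brightest probes of the 2 lines overlapped in part. Among the 489 brightest probes (the top 1%) of DU145, 309 were also in the top 1% of RWPE-1. Of the 489, 139 (28.4%) were at least 2-fold brighter in DU145, 6 of them at least 16-fold, and none was at background in RWPE-1. Of the 489 brightest probes of RWPE-1, 31.3% were at least 2-fold brighter in RWPE-1. These comprised 149 above background in DU145, 13 of them at least 16-fold brighter in RWPE-1, and 4 at background in DU145. Over all probes above background in both lines, 13.8% were graded higher in DU145 and 13.2% lower. Probes picked as bright in one line lean towards being brighter in that line, so the higher shares at the top are a description only.

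The authors' deposited log2 values of the same arrays, which have an equal distribution on each array, gave smaller differences and fewer calls. By those values 2256 probes were graded higher, 2225 lower, 306 switched on and 325 off, with background still read from the raw intensities. Every such probe was in the same class by the background-corrected values, so the deposited values gave subsets of 82.9%, 85.1%, 74.5% and 71.6%. The median difference of the probes graded lower was -1.63 after background correction and -1.42 in the authors' values, and of those graded higher it was 1.48 and 1.31. Both tables come from the same scans and are not independent.

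The probes that switched in DU145 were read in the other cancer lines too. Of 411 probes switched on, 275 (66.9%) were above background in PC3 and 236 (57.4%) in LNCaP-FGC, where 17.4% and 19.9% of all probes at background in RWPE-1 were above it. At least 2-fold above the line, the level that defined the switch in DU145, were 150 (36.5%) in PC3 and 121 (29.4%) in LNCaP-FGC, against 1.62% and 1.85% of all probes at background in RWPE-1. Above background in both other lines were 176 (42.8%, against 7.09% of all such probes), and 76 (18.5%, against 69.8%) were at background in both. The probes switched on in DU145 were thus more often above background in PC3 and LNCaP-FGC than all probes at background in RWPE-1, which include them. For these probes the shares were not taken by RWPE-1 level.

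Of 454 probes switched off, 168 (37.0%) were at background in PC3 and 190 (41.9%) in LNCaP-FGC. Of all probes at least 2-fold above background in RWPE-1, 3.19% and 5.35% were. Since dim probes reach background more easily, the shares were also taken by RWPE-1 level. From 2-fold to 4-fold above the line, 36.4% of the probes switched off were at background in PC3 against 6.18% of all probes of that level, and 38.2% against 8.56% in LNCaP-FGC. From 4-fold to 16-fold it was 35.7% against 2.36%, and 39.5% against 4.49%. Among the 50 that were at least 16-fold above the line in RWPE-1, 22 were at background in PC3 and 34 in LNCaP-FGC, against 1.40% and 3.41% of the 3639 probes as bright. In both other lines 99 of the 454 (21.8%) were at background, against 1.47% of all probes at least 2-fold above it in RWPE-1. More of them, 195 (43.0%), were above background in both, against 92.9% of all such probes. As for methylation, the choice of these probes rests on the RWPE-1 array, and the shares were not tested.

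**Figure D4:**
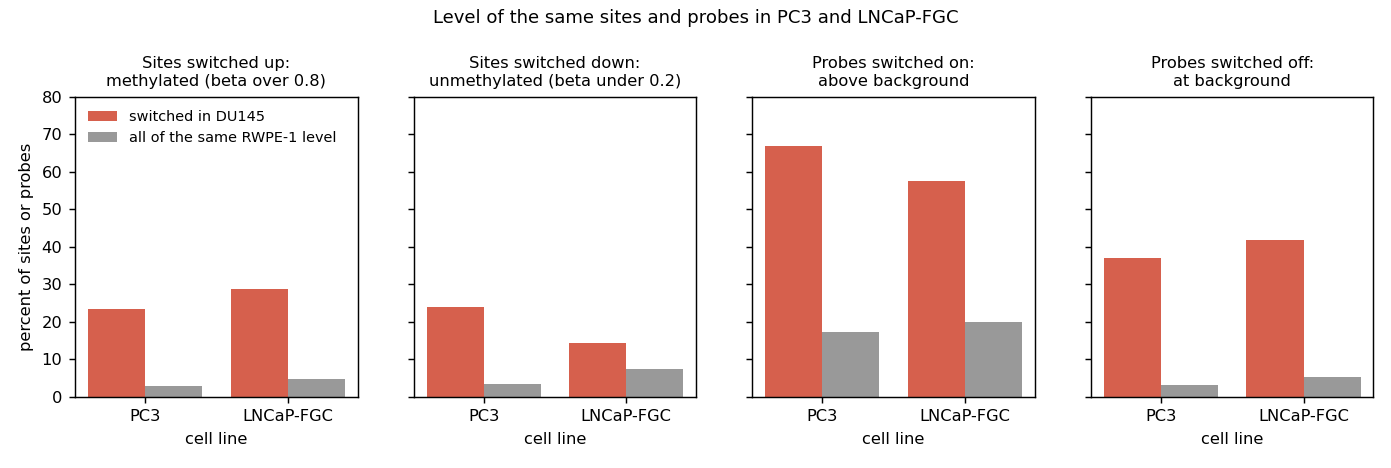
Red bars give the percentage of the sites and probes switched in DU145 that had a given state in PC3 or LNCaP-FGC. In panel order the states were methylated, unmethylated, above background and at background. Any level above background counted for probes switched on, of which 36.5% in PC3 and 29.4% in LNCaP-FGC were at least 2-fold above it. Grey bars give the same percentages for all sites or probes of the same RWPE-1 class, not matched by level within it. These classes, in panel order, were unmethylated, methylated, at background and at least 2-fold above background. The red bar is the higher of the pair in each of the 8 pairs. They run from 14.3% (6 of 42 sites) against 7.51% for sites switched down in LNCaP-FGC to 66.9% against 17.4% for probes switched on in PC3.

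The balance of directions varied with the normalization chosen in both assays. Every expression setting makes the arrays alike in their distribution or median, which brings the balance near even: graded probes were 50.3% to 54.8% higher in DU145 except at a size of 4-fold, where 41.5% were. As deposited, 87.1% of the graded sites and 94.8% of the switched sites were towards methylation in DU145. These were 86.7% and 94.4% after rescaling the DU145 betas linearly, and 52.8% and 78.0% with betas quantile normalized as the intensities were. The balances of the assays are therefore not compared with each other. Whether the genes next to gained sites were those with lower expression was not analysed here, since sites and probes carry no gene in the tables used.

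**Figure D5:**
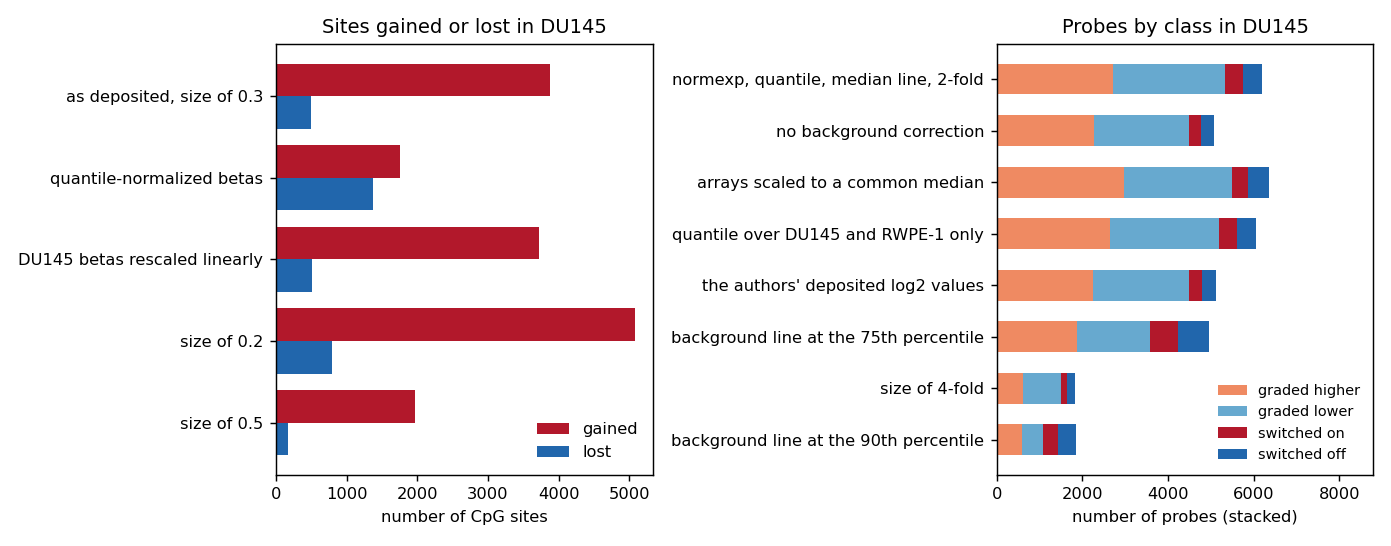
Left, the number of CpG sites gained (red) or lost (blue) in DU145 under each setting; gains exceed losses under every setting shown, from 1757 against 1370 with quantile-normalized betas to 1971 against 171 at a size of 0.5. Right, stacked numbers of probes graded higher, graded lower, switched on and switched off under each setting, with the lowest totals at a size of 4-fold and with the line at the 90th percentile.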

How the data were processed

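Genomic DNA and total RNA of DU145 and RWPE-1 were measured with 1 array per line and assay. The authors deposited methylation as beta values, a fraction from 0 to 1 (HumanMethylation27 beadchip after bisulfite conversion, per the labels' protocols). They deposited expression as raw probe intensity exported with BeadStudio (version 3.1.3, per the series text in the labels), neither background-subtracted nor normalized judging from the values. The authors also deposited log2 values of the same expression arrays, already with an equal distribution on each array. These were recorded here as quantile normalized.

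Intensities were corrected with limma 3.58.1 (normexp, offset 50; R 4.3.3) and quantile normalized on the log2 scale over the 4 arrays. Betas were used as deposited, without the 27 sites blank in either line. Columns were matched to lines by name. No test was made, as groups of 1 array leave no error; precision is limited by the number of arrays. The class rules were run on simulated data with planted changes past the limits, without background correction or normalization. This checks that the rules work as written and not the calls in the data. Size limits were 2-fold and 0.3 in beta, class limits 0.2 and 0.8, and background the array's median. For switches the fold is a bound against the normalized median of the dim array. Identifiers named are the largest graded difference and the brightest or largest switch per direction, for probes also at least 2-fold without background correction and in the authors' log2 values. No identifier was paired with a gene in the tables used, so the planned gene lists, marker checks and the joint reading of both assays were left out. The pair, the limits and the rules were chosen with earlier results of these data known.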

Additional observations from a re-analysis of the deposited data

How the results depend on the processing

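Of 56 recomputed counts, 31 stayed within 1.5 times the reported one, and the 24 recomputed differences of named probes and sites kept their direction and size class. With quantile-normalized betas there were 1757 gains, 1370 losses, 327 switches up, 92 switches down, 1430 graded gains and 1278 graded losses, which follows from forcing 1 distribution. At a size of 0.2 in beta there were 796 losses, 754 of them graded. At 0.5 there were 1971 gains (1211 graded) and 171 losses (129 graded). Class limits of 0.3 and 0.7 gave 1404 switches up and 113 down, and limits of 0.1 and 0.9 gave 237 and 10. At 4-fold, 622 probes were graded higher, 875 lower, 155 switched on and 179 off. With the background line at the 75th percentile 1699 were graded lower, 643 switched on and 727 off, and at the 90th percentile, added after seeing the data, 588 were graded higher and 485 lower. Another size or limit changes a count by construction. The alternatives for gene lists and for genes read in both assays were not run, as no genes could be assigned. No paired analysis was possible because each line had 1 array per assay. Without repeat arrays, signal over background limits what can be said of dim probes.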
